A study of Drosophila melanogaster with 24 samples.

Results

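Between pupal life and mid adulthood the fly's flight muscle and its nerve cord both mature, and here each gene was asked whether its change over that time was alike in both tissues, confined by the test to 1 of them, or opposite. The comparison used 12 of 24 Drosophila melanogaster RNA-seq libraries, 3 from each of 4 groups: the indirect flight muscle (IFM) or the ventral nerve cord (VNC), each from pupae at 30 h after puparium formation (APF) and from adults at 15 days. All 4 groups were controls, raised from the first larval instar on food with 0.01% DMSO as solvent and, as adults, on plain food. The strain is not given in the sources used here, the sexes were mixed, tissue of 50 animals was pooled in each library, and the animals were fixed in Methacarn, a mixture of methanol, chloroform and acetic acid, before dissection. The other 12 libraries, from animals fed 5 µM methylmercury as larvae, took no part in sorting the genes and served as a repeat, and in 1 other setting of the fit as further groups.

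The IFM are the large fibrillar muscles that beat the wings. At the pupal stage sampled here their myotubes have formed and assemble their first sarcomeres, and they later fill with mitochondria. The VNC is the fly's counterpart of the spinal cord and at this stage still prunes and regrows larval neurons and wires the adult ones, under the steroid hormone ecdysone, which times metamorphosis throughout the body. Ecdysone acts through a nuclear receptor and a cascade of early genes, many of them transcription factors, whose later targets differ between tissues.

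For each of 12001 genes tested, the stage effect was the log2 ratio of adult to pupa in 1 tissue, and the interaction was the IFM stage effect minus the VNC stage effect. A gene was called where edgeR's quasi-likelihood test gave a Benjamini-Hochberg adjusted p under 0.05 over all genes tested. Levels are in CPM, counts per 1000000 counts of the library after TMM scaling, values after ± are the SD over 3 libraries for a level and the standard error for a log2 effect. Opposite means called in both tissues with opposite signs and the interaction called. Alike means called in both with the same sign and the 95% interval of the interaction inside a 2-fold difference. An alike gene can still have a called interaction of a size within that margin, so alike does not mean equal. Such a gene was counted as alike and not as unequal. IFM alone and VNC alone mean called in that tissue, not called in the other, and the interaction called, so that the difference itself passed the test. Each named gene was also classed under 23 other settings of the fit, namely other scalings, filters, tools and blocks, each control library left out, and the methylmercury-fed libraries in place of the controls. Classes that a left-out library ended are given beside the gene. In bulk tissue a change in the share of a cell type and a change in RNA per cell cannot be told apart.

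Library totals, in units of 1000000 counts, ran from 17.1 to 29.4 in pupal IFM, 30.9 to 36.3 in adult IFM, 23.8 to 33.1 in pupal VNC and 35.1 to 39.3 in adult VNC. The tissue labels held against defining markers. The summed CPM of 19 neuronal genes was 894 to 1033 in pupal and 597 to 791 in adult IFM against 14370.0 to 15731 and 27832 to 31375 in VNC, and flight muscle actin Act88F stood at 17516 CPM in pupal IFM against 3.99, 38.1 and 3.03 in the pupal VNC libraries. Other tissues moved with the groups. Summed fat body markers (17 genes, apolpp and yolk proteins among them) went from 11887 to 21683 to 64644 to 79363 CPM in IFM and went from 17447 to 20415 to 11041 to 12091 in VNC, and summed haemocyte markers (13 genes) went from 305 to 412 to 1296 to 2181 in IFM and from 600.0 to 641 to 466 to 533 in VNC. Summed gut markers were 821 to 10765 CPM in adult IFM, 321 to 709 in adult VNC and at most 5.60 in any pupal library. The part of these markers in the results below was not tested.

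**Figure D1:**
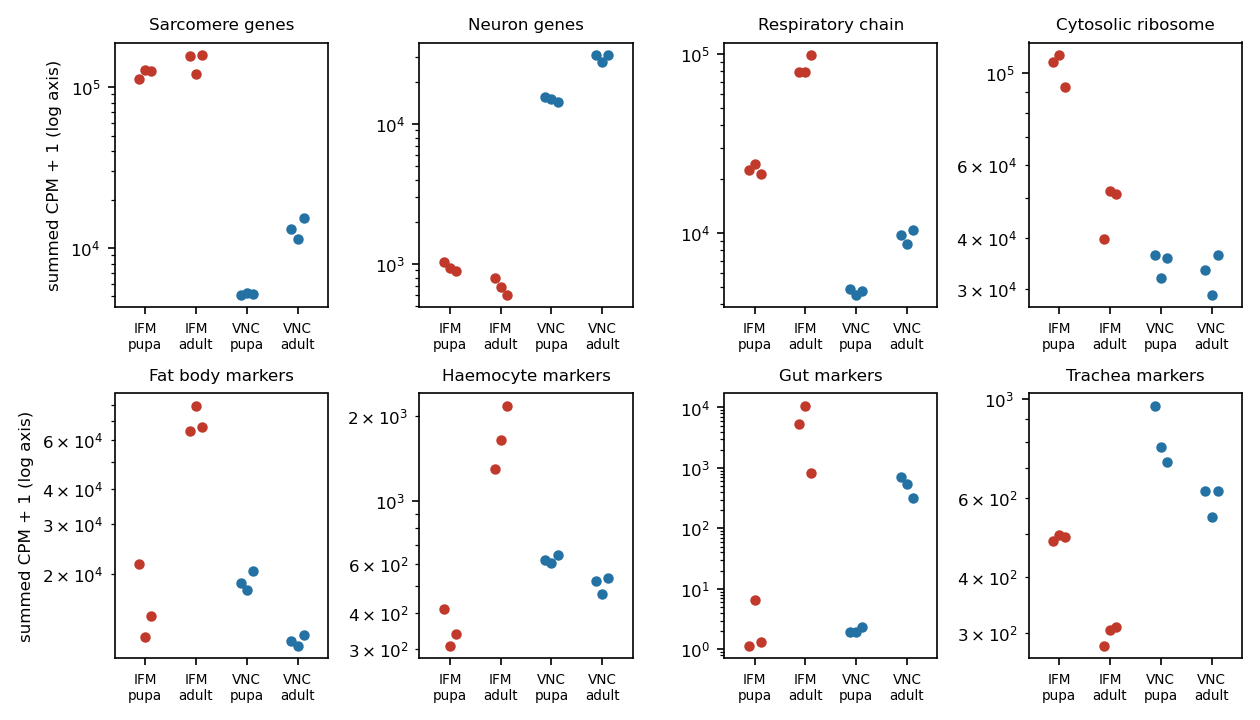
Summed CPM of 8 gene lists in each of the 12 control libraries (y axis, summed CPM plus 1 on a log axis; red, IFM; blue, VNC; 1 point per library). Neuron genes separate the tissues at both stages, fat body and haemocyte markers are highest in adult IFM, and gut markers rest almost wholly on adult libraries.

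A pair of libraries stood apart in a way that touches the genes with opposite signs. Among the genes called in neither tissue, 462 had a fitted fall of at least 2-fold in IFM and a fitted rise of at least 2-fold in VNC, against 18 with the mirror pattern. In 437 of these 462 genes the highest pupal IFM library was replicate 2 and the highest adult VNC library was replicate 2. Their median level was 1.72 CPM in pupal IFM replicate 2 against 0.0622 and 0.218 CPM in replicates 1 and 3, and 3.38 CPM in adult VNC replicate 2 against 0.0256 and 0.0949. Of the 7 tested male germline markers 4 were among them, and the list's summed level was 23.1 CPM in pupal IFM replicate 2 and 49.7 CPM in adult VNC replicate 2 against 0.529 to 5.91 CPM in the other 10 libraries. By their construction none of the 462 was called in a tissue, so they enter none of the classes below, and of the 103 opposite genes that fell 2-fold or more in IFM and rose 2-fold or more in VNC, 5 had both of these libraries as the highest of their groups.

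Maturation changed most genes in both tissues. The stage effect was called for 8523 genes in IFM, 71% of those tested (35.8% higher and 35.2% lower in adults), and for 7055 in VNC, 58.8% (31.7% higher and 27.1% lower). The balance in VNC rested on the adult IFM libraries through the scaling: without any 1 of them 3235 to 3276 genes rose and 4033 to 4087 fell in VNC, against 3808 and 3247 with all. Both tissues called 5668 genes, which is 66.5% of the IFM calls and 80.34% of the VNC calls, and 4602 of them, 81.19%, had the same sign. The interaction was called for 6461 genes, 53.8% of those tested, with 26.4% more positive and 27.4% more negative in IFM. Across genes, which are not independent replicates, both stage effects had a Pearson r of 0.67 and a Spearman rho of 0.46, as a description.

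More genes shared a direction than opposed each other. By class, 1974 genes (16.4%) moved the same way by unequal amounts, 2092 (17.4%) were IFM alone, 1498 (12.5%) were alike, 1066 (8.88%) were opposite and 890 (7.42%) were VNC alone. The alike genes include some with a called interaction, such as NetB and Eip75B, so alike and a called interaction do not exclude each other. A further 1130 genes moved the same way with an interval too wide to call them alike or unequal. Of the alike genes 716 rose and 782 fell, and of the opposite genes 613 fell in IFM and rose in VNC while 453 did the reverse. That order turned without any 1 adult IFM library, with 497 to 545 falling in IFM and rising in VNC and 554 to 589 doing the reverse. The opposite effects were mostly modest: the median size of the stage effect in genes that fell in IFM and rose in VNC was 1.03 in IFM and 0.71 in VNC on the log2 scale, and 224 of the 1066 passed 2-fold in each tissue.

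**Figure D2:**
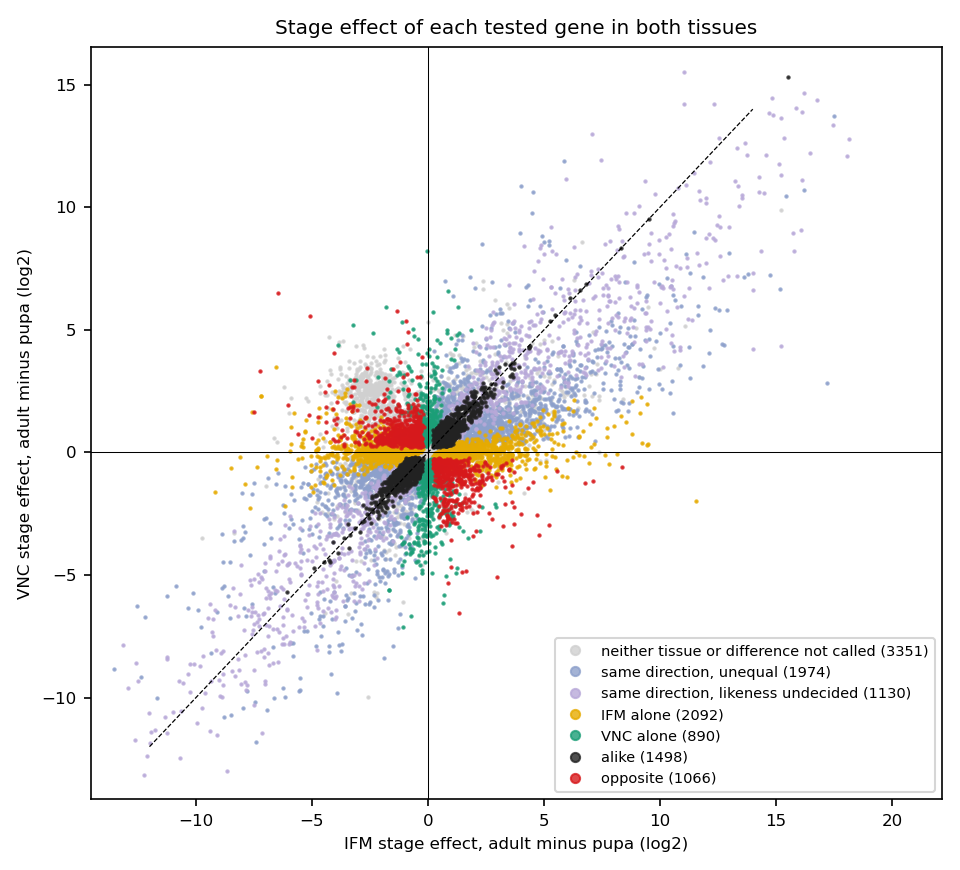
Stage effect in VNC (y axis, log2) against stage effect in IFM (x axis, log2) for the 12001 tested genes, coloured by class, with the number of genes per class in the legend and the line of equal effects dashed. Alike genes hug the dashed line, the 1066 opposite genes lie in the upper left and lower right quadrants, and the pale cloud in the upper left holds the 462 genes called in neither tissue.

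The tissues differed more in adults than in pupae. Among 9073 genes that reached 5 CPM in at least 1 group, the median absolute log2 ratio of IFM to VNC was 0.767 in pupae and 1.10 in adults, computed with 1 CPM added, and 3781 genes in pupae against 4808 in adults differed more than 2-fold between the tissues. The opposite class exchanged tissues often: 256 of the 613 genes that fell in IFM and rose in VNC (41.8%) were higher in IFM in pupae and higher in VNC in adults, and 243 of the 453 that did the reverse (53.6%) went from higher in VNC to higher in IFM. Over all genes tested those shares were 16.4% and 15.1%. A fall in one tissue with a rise in the other moves a gene toward such an exchange, so these shares describe the class and test nothing. Genes that rose alike, or that rose only or more in VNC, were long, with a median genomic span of 4104 bp for alike and up, 3979 bp for VNC alone and up and 4323 bp for up and larger in VNC, against 2431 bp over all genes tested.

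The genes that ranked highest among those that fell in IFM and rose in VNC were Hr38, gprs, Nepl5, Gyc88E, axed and zld, and all 6 kept that class in 23 of 23 other settings. Hr38, the fly's NR4A nuclear receptor and a partner of the ecdysone receptor subunit Usp, stood at 777, 1182 and 761 CPM in the 3 pupal IFM libraries, 26.0, 25.5 and 29.3 in adult IFM, 0.847, 3.07 and 0.651 in pupal VNC and 81.0, 74.3 and 66.1 in adult VNC. The stages did not overlap in either tissue, which the rule for naming required. The gene was higher in IFM in pupae and higher in VNC in adults. Its stage effects were -5.07 ± 0.44 in IFM and 5.57 ± 0.47 in VNC, an interaction of -10.64 ± 0.64 (adjusted p = 3.1e-07, edgeR). In the RefSeq annotation of Release 6, the dm6 build, Hr38 spans chromosome 2L, 20683462 to 20714588, and zld chromosome X, 19766465 to 19783548. zld, the pioneer factor that opens the embryonic genome, was nearly equal in both pupal tissues, at 13.5 ± 0.196 CPM in IFM and 14.4 ± 2.02 in VNC, and ended at 3.13, 2.04 and 1.44 and 164, 147 and 161 CPM, with an interaction of -6.06 ± 0.29 (adjusted p = 2.4e-08). The muscle regulator Mef2 went from 1262, 1216 and 1515 to 432, 349 and 408 CPM in IFM and from 56.6, 58.6 and 59.9 to 144, 126 and 138 in VNC, so it remained higher in muscle at both stages while the gap narrowed. Imp, an RNA-binding protein high in young neural progenitors, fell to 143 ± 12.8 from 785 ± 89.7 CPM in IFM and was at 164 ± 2.06 and 199 ± 15.7 in VNC, where its rise was called but the opposite class held in only 10 of 23 other settings and in 3 of the 12 with 1 library left out (pupal IFM replicate 2 or 3 or adult VNC replicate 2).

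Members of the ecdysone cascade lay on both sides. Blimp-1, an ecdysone-induced repressor, was at 75.0, 74.3 and 57.5 CPM in pupal and 227, 182 and 167 in adult IFM, and at 992, 827 and 749 in pupal and 211, 199 and 211 in adult VNC. Its tissues began far apart and ended level. Eip93F, which specifies adult fates late in metamorphosis, rose from 282, 259 and 264 to 441, 567 and 522 CPM in IFM and fell from 647, 503 and 547 to 309.9, 255 and 276 in VNC, so its order between the tissues turned over. Sox14, which drives neuron pruning downstream of the ecdysone receptor, had stage effects of 0.63 ± 0.13 in IFM and -2.34 ± 0.13 in VNC. Over the 30 tested genes of the ecdysone list, 5 fell in IFM and rose in VNC, 3 did the reverse, 10 moved the same way unequally and 1 rose and 2 fell alike. The opposite count together, 8 of 30, stands beside 8.88% of all genes. Eip78C, an ecdysone-induced orphan receptor, fell in both, from 785 ± 152 to 8.36 ± 0.536 CPM in IFM and only from 317 ± 47.9 to 129.7 ± 9.26 in VNC. Eip75B, the fly's Rev-erb counterpart, fell alike, though with a called interaction, and lost the class without pupal VNC replicate 1.

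**Figure D3:**
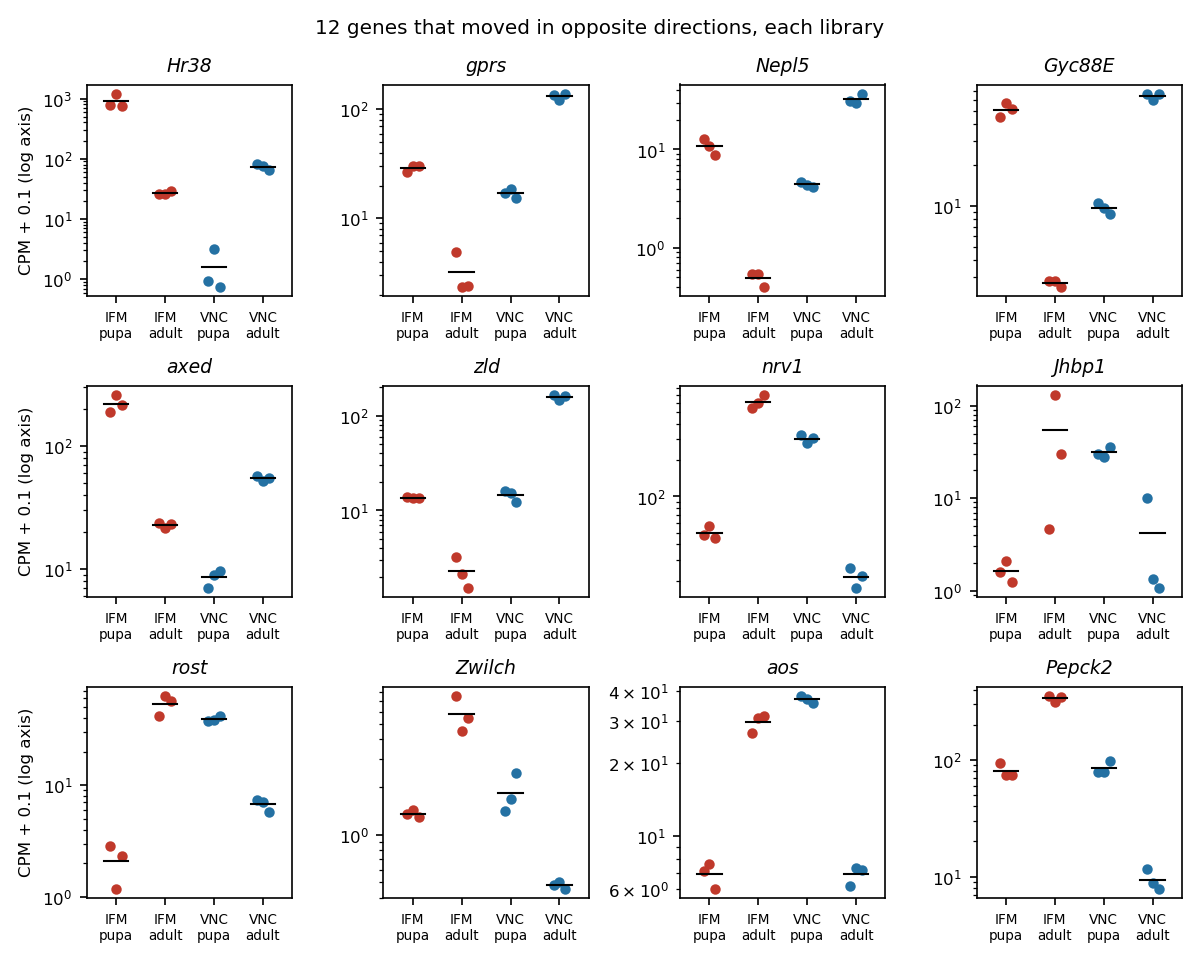
CPM (plus 0.1, log axis) of 12 opposite genes in each control library (x axis, the 4 groups; red, IFM; blue, VNC; black lines, group means). Hr38, gprs, Nepl5, Gyc88E, axed and zld fall in IFM and rise in VNC, nrv1, Jhbp1, rost, Zwilch, aos and Pepck2 do the reverse, and Jhbp1 spreads widely over the 3 adult IFM libraries.

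Of 38 tested ion channel genes 4 were opposite, a share near the 8.88% of all genes, and single genes of ion transport and signalling moved far apart. nrv1, a beta subunit of the sodium-potassium ATPase, was at 47.5, 57.3 and 45.5 CPM in pupal IFM and 544, 592 and 693 in adult IFM, against 325, 277 and 304 in pupal VNC and 25.2, 17.4 and 21.6 in adult VNC. Each tissue's libraries separated by stage, as the rule for naming required, and the interaction was 7.42 ± 0.23 (adjusted p = 2e-09, edgeR). The gene spans chromosome 2L, 6778555 to 6786861, and SK chromosome X, 5340236 to 5405138. SK, the calcium-activated potassium channel, went the other way, from 860.1, 984 and 1113 to 33.7, 27.6 and 30.0 CPM in IFM and from 313, 348 and 317 to 522, 453 and 498 in VNC. Ca-alpha1D, the L-type calcium channel subunit, fell a little in IFM (-0.54 ± 0.14) and rose from 92.4 ± 4.48 to 489 ± 40.9 CPM in VNC, and its partner in calcium release, the ryanodine receptor RyR, was VNC alone (-0.33 ± 0.16 in IFM, 2.23 ± 0.17 in VNC), though not without adult IFM replicate 1. Gyc88E, a soluble guanylyl cyclase subunit, fell from 50.9 ± 6.00 to 2.63 ± 0.149 CPM in IFM and rose from 9.55 ± 0.839 to 64.1 ± 3.61 in VNC.

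Single genes of the neuromuscular synapse and of axons were opposite. GluRIIA, a subunit of the glutamate receptor on the muscle side of the junction, stood at 33.7, 38.1 and 45.1 CPM in pupal IFM, 1.45, 2.17 and 1.74 in adult IFM, 7.68, 6.96 and 6.93 in pupal VNC and 40.6, 35.0 and 42.7 in adult VNC, an interaction of -6.91 ± 0.23 (adjusted p = 2.8e-09). The subunits GluRIIB and GluRIIC did not follow it in the nerve cord. GluRIIB and GluRIIC fell in both tissues, with -6.91 ± 0.49 and -5.18 ± 0.39 in IFM and -1.06 ± 0.40 and -1.28 ± 0.43 in VNC, where their adult levels were 0.416 and 0.248 CPM. At these levels the class was not stable: GluRIIB lost it without pupal IFM replicate 1 or 3, pupal VNC replicate 1 or 3 or adult VNC replicate 1, and GluRIIC without pupal VNC replicate 3 or adult VNC replicate 1 or 2. futsch, the MAP1B-like protein that bundles axonal microtubules, fell from 559.8 ± 28.9 to 151 ± 32.7 CPM in IFM and rose from 3141 ± 207 to 9442 ± 779 in VNC. axed, a protein required for injured axons to degenerate, fell from 220.5 ± 35.3 to 22.8 ± 1.30 in IFM and rose from 8.50 ± 1.37 to 54.8 ± 2.46 in VNC. Of 30 tested junction genes 3 were opposite, a share near the 8.88% of all genes, and 15 had a more negative and 4 a more positive interaction, against 27.4% and 26.4% of all genes.

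Muscle structural genes also held opposite members. Msp300, a giant nesprin that anchors nuclei, had the highest group mean of any opposite gene, at 17311, 19195 and 18527 CPM in pupal IFM, 7656, 6077 and 7489 in adult IFM, 3167, 3229 and 3208 in pupal VNC and 11467, 9736 and 12814 in adult VNC. It ended higher in the nerve cord than in the muscle. The tropomyosin Tm2 fell from 2052 ± 536 to 285 ± 16.6 CPM in IFM while it went from 6.28 ± 1.11 to 14.8 ± 3.85 in VNC, and the troponin genes up and wupA did likewise (-0.91 ± 0.26 and -0.74 ± 0.23 in IFM, 0.88 ± 0.27 and 1.07 ± 0.24 in VNC), up losing the class without adult IFM replicate 1, pupal VNC replicate 1 or adult VNC replicate 3. Levels of Tm2, up and wupA in VNC remained under 30 CPM in every library, beside Mhc, the muscle myosin heavy chain, at 13.5, 56.2 and 19.1 CPM in pupal and 75.2, 84.6 and 192 in adult VNC. In the methylmercury-fed libraries Tm2, up and wupA were not opposite, and with all 24 libraries up and wupA were not. Of 36 tested sarcomere genes 6 were opposite in the controls and 2 in the methylmercury-fed libraries. Their median VNC stage effect was 0.89 and -0.35. The part of such muscle RNA in the VNC rises of Tm2, up and wupA was not tested. Strn-Mlck, a myosin light chain kinase of the flight muscle, did the reverse, from 3577 ± 275 to 8382 ± 1175 CPM in IFM and from 160.3 ± 14.5 to 55.3 ± 14.2 in VNC. Act57B, a muscle actin, had 2.69 ± 0.21 in IFM and -0.60 ± 0.21 in VNC, although reads can be shared among near-identical actins and the class was lost without pupal VNC replicate 3 or adult VNC replicate 1 or 2.

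Mitochondrial genes divided into groups that moved together and groups that moved apart. Subunits of the respiratory chain and ATP synthase, encoded in the nucleus, rose in both tissues: of 80 tested, 67 rose and 4 fell in IFM and 69 rose and 1 fell in VNC, against 35.8% and 31.7% of all genes rising. The rise was larger in IFM for 44 that moved the same way, 19 rose alike, and the medians were 1.95 in IFM and 1.13 in VNC, where all genes had medians of -0.09 and 0.15. ND-51, a complex I subunit, went from 345 ± 24.3 to 5674 ± 1009.9 CPM in IFM and from 75.9 ± 4.36 to 287 ± 42.6 in VNC, an interaction of 2.12 ± 0.20 (adjusted p = 3.9e-06). SdhA, the flavoprotein of complex II, counted as alike, with 2.52 ± 0.09 in IFM and 1.91 ± 0.09 in VNC, though its interaction was called. ATPsynC, the ring subunit of ATP synthase, was 1 of 2 opposite members, with -0.92 ± 0.10 in IFM and 0.56 ± 0.10 in VNC.

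The ribosomes that translate the mitochondrial genome went apart. Of 72 tested proteins of the mitochondrial ribosome, 51 fell and 9 rose in IFM while 45 rose and 1 fell in VNC. Over all genes 35.2% fell and 35.8% rose in IFM, and 31.7% rose and 27.1% fell in VNC. Opposite in the direction of a fall in IFM and a rise in VNC were 31, against 8.88% of all genes in both opposite directions together, and 18 more were IFM alone and down. The total of 19 IFM alone became 29 or 30 without adult IFM replicate 3, pupal VNC replicate 2 or adult VNC replicate 3, and the 1 that fell in VNC became 6 or 7 without any 1 adult IFM library and 2 without pupal IFM replicate 3. The median interaction was -1.37, against -0.09 over all genes, and its range over 22 other settings was -1.44 to -1.21. mRpL55 was at 43.0, 44.5 and 40.9 CPM in pupal and 6.84, 8.02 and 9.26 in adult IFM and at 7.89, 5.76 and 8.33 and 17.5, 13.9 and 15.6 in VNC, so its stages did not overlap in either tissue. mRpL39, with the largest interaction of the list, fell from 97.3 ± 3.67 to 8.43 ± 1.01 CPM in IFM and stood at 17.4 ± 0.906 and 18.0 ± 1.32 in VNC. Of the 9 that rose in IFM 4 rose alike, 2 without pupal IFM replicate 1 or adult VNC replicate 1. mRpS30 was alike in 23 of 23 other settings, while mRpS5 (2.12 ± 0.16 and 1.68 ± 0.16) was alike in 14 and lost the class without pupal IFM replicate 1 or 3, adult IFM replicate 1 or 2, pupal VNC replicate 2 or adult VNC replicate 1.

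Genes of mitochondrial import and upkeep also held opposite members, against 8.88% of all genes. Of 25 tested genes, 9 fell in IFM and rose in VNC, 2 did the reverse and 3 rose alike. The 11 opposite members became 6 or 7 without any 1 adult IFM library, pupal VNC replicate 2 or adult VNC replicate 3. Hsp60A, the mitochondrial chaperonin, was at 1080.2, 1386 and 1084 CPM in pupal IFM, 232, 229.9 and 266 in adult IFM, 160.3, 153 and 153 in pupal VNC and 489.7, 457 and 574 in adult VNC, so that the higher tissue changed with age. milt, the adaptor that ties mitochondria to kinesin, went from 772 ± 90.3 to 230.0 ± 24.6 CPM in IFM and from 213 ± 13.9 to 548 ± 50.1 in VNC. Tom70, an import receptor, and mtDNA-helicase, the replicative helicase of the mitochondrial genome, had interactions of -2.85 ± 0.13 and -4.32 ± 0.25, and Tom70 was no longer opposite without any 1 adult IFM library. The alike members were the mitofusin Marf (2.18 ± 0.11 and 1.98 ± 0.11), the ADP/ATP carrier sesB (1.79 ± 0.11 and 1.79 ± 0.11) and park, the fly's parkin.

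**Figure D4:**
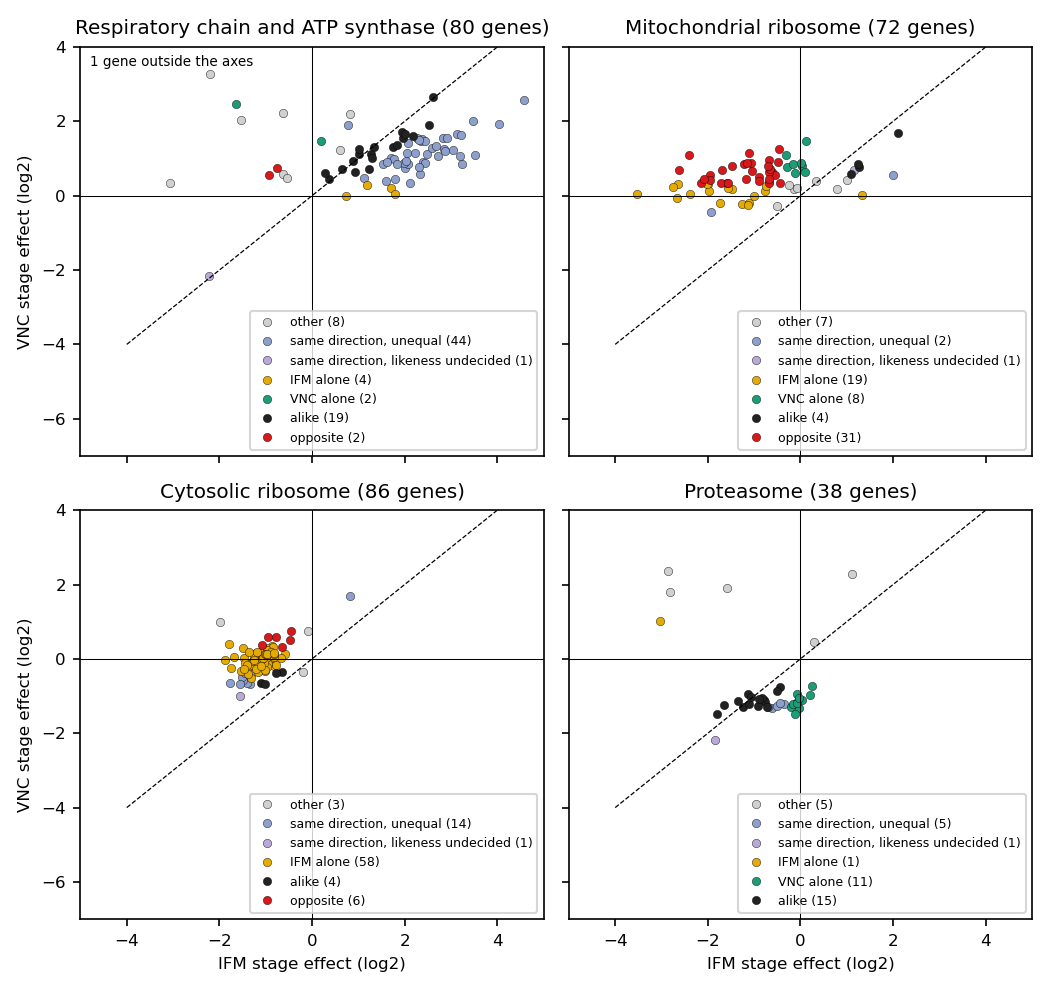
Stage effect in VNC (y axis, log2) against IFM (x axis, log2) for 4 sets of genes, coloured by class, with the line of equal effects dashed. Respiratory chain genes lie in the upper right, mitochondrial ribosome genes mostly in the upper left, cytosolic ribosome genes mostly left of 0 and near 0 in VNC, and most proteasome genes below 0 in both tissues; 1 respiratory gene lies outside the axes.

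The cytosolic ribosome fell in IFM. Of 86 tested ribosomal protein genes 82 fell in IFM, against 35.2% of all genes, and 19 fell and 7 rose in VNC, against 27.1% and 31.7%. Over all genes 27.4% had a negative interaction and 17.4% were IFM alone in either direction. The interaction was called negative for 79 and positive for none, 58 were IFM alone and down, which became 33 to 35 without any 1 of the adult IFM libraries, and the medians were -1.10 in IFM and -0.11 in VNC. RpS2 was at 1666, 2039 and 1507 CPM in pupal and 452, 537 and 425 in adult IFM, and at 508, 452 and 502 and 460.2, 472 and 495 in VNC, where the stages overlapped. Summed over the list, adult IFM (39799 to 51735 CPM) came down toward the level of VNC, 31936 to 36295 CPM in pupae and 29041 to 36374 in adults. How many fell in VNC depended on the libraries. Leaving out any 1 of the 3 adult IFM libraries moved the VNC stage effect of all genes by a median of -0.17 through the scaling, and 44 or 45 then fell there. Without pupal VNC replicate 1 it was 11, without pupal VNC replicate 3 it was 12, and without adult VNC replicate 2 the number that rose went from 7 to 12. In the methylmercury-fed animals 47 of 85 fell in VNC, and 62 had a negative interaction and none a positive one.

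Factors that build ribosomes fell further in IFM. Of 28 tested, 27 fell in IFM with a median of -1.73, 9 rose and 5 fell in VNC with a median of 0.13, and 8 were opposite. Over all genes 35.2% fell in IFM, 31.7% rose and 27.1% fell in VNC, and 8.88% were opposite, so the 9 rises are near the share of all genes. The VNC side was uncertain: with 1 library left out, any but pupal IFM replicates 2 and 3, pupal VNC replicate 1 or adult VNC replicate 2, 4 or 5 were opposite, and without any 1 adult IFM library the VNC median was -0.04. The 9 rises became 5 without adult IFM replicate 1 or 3 or adult VNC replicate 3, and the 5 falls became 2 or 3 without pupal VNC replicate 1 or adult VNC replicate 1 or 2. Fib, the methyltransferase fibrillarin, went from 83.2, 97.3 and 66.5 to 10.3, 10.1 and 10.9 CPM in IFM and from 9.03, 7.55 and 9.05 to 9.22, 7.91 and 10.7 in VNC. Nop60B, the pseudouridine synthase of small nucleolar particles, had -3.12 ± 0.11 in IFM and 0.04 ± 0.10 in VNC.

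The proteasome shared its direction. Of 38 tested genes 22 fell in IFM and 32 in VNC, none rose in either, 15 fell alike and 11 were VNC alone and down (5 without adult IFM replicate 3), with medians of -0.66 and -1.15. Over all genes 35.2% fell in IFM and 27.1% in VNC, and 12.5% were alike and 7.42% VNC alone in either direction. The sizes were less shared than the direction: the interaction was positive for 19 and negative for 2, against 26.4% and 27.4% of all genes. Prosalpha6 fell from 152, 142 and 144 to 33.0, 42.3 and 49.6 CPM in IFM and from 70.1, 66.9 and 72.9 to 26.3, 22.4 and 26.1 in VNC. Prosbeta1, a catalytic subunit, was VNC alone, at 91.3 ± 4.22 and 89.5 ± 21.1 CPM in IFM and 45.5 ± 2.72 and 18.0 ± 0.396 in VNC. It lost that class without adult IFM replicate 3. Of the list's 5 genes called in neither tissue 3 were among the 462 genes that were high in pupal IFM replicate 2 and adult VNC replicate 2.

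Notch pathway and axon guidance genes fell in both tissues. All 18 tested Notch pathway genes fell in IFM and 16 fell in VNC, against 35.2% and 27.1% of all genes, with medians of -2.46 and -2.70, and 4 of them fell alike. kuz, the protease that activates Notch, fell from 111 ± 19.0 to 30.6 ± 4.38 CPM in IFM and from 409 ± 27.3 to 142 ± 6.63 in VNC, while Notch itself (N) fell more in IFM (-2.41 ± 0.13 against -0.58 ± 0.12). The exception was numb, an inhibitor of Notch that is handed to 1 daughter cell at division, which fell in IFM (-0.49 ± 0.17) and rose in VNC (1.02 ± 0.17), a class it lost without pupal IFM replicate 2 or 3. Of 41 tested axon guidance genes 28 fell in IFM and 29 in VNC, 4 alike (8 without adult IFM replicate 3), among them the repellent Sema2a (-1.80 ± 0.12 and -2.04 ± 0.12), and 15 unequally, among them the receptor robo2 (-5.90 ± 0.13 and -1.71 ± 0.11). The guidance cue NetA was VNC alone, at 29.6 ± 2.45 and 36.2 ± 6.49 CPM in IFM and 32.9 ± 2.37 and 2.23 ± 0.459 in VNC, a class it lost without adult IFM replicate 2. Its sister gene NetB fell alike by the 2-fold margin, but its interaction was called here and in 23 of 23 other settings, at -0.94 to -0.46.

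Most tested cell cycle genes fell in IFM and most fell in VNC, against 35.2% and 27.1% of all genes, though not always the same genes. Of 49 tested cell cycle genes 34 fell in IFM and 28 in VNC, 6 of them alike in this fit, such as CycD (-1.34 ± 0.10 and -1.38 ± 0.10), the D-type cyclin. With those that rose, 7 were alike, a share near the 12.5% of all genes, and 3 without pupal VNC replicate 3. Of 40 tested DNA replication genes 15 rose and 14 fell in IFM, near the 35.8% and 35.2% of all genes, and 4 rose and 17 fell in VNC. The interaction was positive for 17 and negative for 4, against 26.4% and 27.4% of all genes. The 4 that rose in VNC became 2 without adult IFM replicate 1 or 2, pupal VNC replicate 2 or adult VNC replicate 1. RnrL, the large subunit of ribonucleotide reductase, rose from 6.78, 4.84 and 5.59 to 20.9, 14.7 and 26.7 CPM in IFM and fell from 6.20, 5.73 and 8.43 to 2.33, 2.54 and 3.56 in VNC, and the helicase subunit dpa (Mcm4) went the same way, with 2.48 ± 0.16 and -0.42 ± 0.15, though its opposite class was lost without any 1 pupal VNC library or adult VNC replicate 1 or 2. PCNA, the sliding clamp, fell alike (-2.55 ± 0.25 and -2.68 ± 0.25), a class lost without pupal IFM replicate 1, adult IFM replicate 3 or pupal VNC replicate 1 or 2. Chromatin and splicing genes were often alike: 11 of 28 chromatin genes and 8 of 28 splicing genes fell alike, against 12.5% of all genes in both directions, among them the deacetylase HDAC1 (-1.38 ± 0.11 and -1.34 ± 0.11) and SmD1, a core protein of the spliceosome (-1.82 ± 0.17 and -1.76 ± 0.17).

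The largest alike falls by the rule used for naming were Dtg, obst-A, Cyp9c1, Hsp26, Df31 and Cad86C. Their likeness was not equally firm: Hsp26 was alike in 14 of 23 other settings, Cyp9c1 in 16 and Cad86C in 12, against 21 for Dtg and 20 for obst-A. Cad86C also had a called interaction. Hsp26 lost the class without pupal IFM replicate 1 or 3, pupal VNC replicate 2 or adult VNC replicate 2 or 3, Cyp9c1 without 5 and Cad86C without 8 of the 12 libraries in turn. Hsp26, a small heat shock protein, fell from 1091, 1267 and 1042 to 52.9, 82.0 and 67.0 CPM in IFM and from 377, 487 and 388 to 38.2, 32.0 and 30.5 in VNC, and Df31, a chromatin decondensation factor, fell from 573 ± 61.6 to 46.9 ± 5.40 and from 826 ± 53.8 to 73.3 ± 6.09. brat, a translational repressor that curbs neural progenitor growth, was far higher in VNC and fell by nearly the same factor in both (-2.93 ± 0.15 and -3.25 ± 0.15). The pan-neuronal RNA-binding gene elav fell alike, with -0.96 ± 0.12 in IFM, where its pupal level was 73.9 ± 7.11 CPM, and -0.96 ± 0.12 in VNC, where it was 510.3 ± 31.5.

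Most tested ion channel and synaptic vesicle genes rose in both tissues. Of 38 tested ion channel genes 26 rose in IFM and 34 in VNC, 11 alike, and of 25 synaptic vesicle genes 21 and 21 rose, 9 alike. Over all genes 35.8% rose in IFM, 31.7% rose in VNC and 12.5% were alike in either direction. The interaction was negative for 12 and positive for 4 vesicle genes, against 27.4% and 26.4% of all genes. For channel genes it was negative for 10 (5 to 16 with 1 library left out) and positive for 7. In the methylmercury-fed libraries 5 channel and 4 vesicle genes were alike, with 21 and 18 negative and 9 and 2 positive interactions. Of 40 tested transmitter receptor genes 13 rose in IFM, a share near that of all genes, and 23 in VNC. para, the voltage-gated sodium channel, was at 7.46, 6.49 and 8.45 and 38.4, 29.0 and 21.0 CPM in pupal and adult IFM and at 469, 564 and 495 and 2146, 1899.5 and 2152 in VNC. Vmat, the vesicular monoamine transporter, rose from 2.49 ± 0.813 to 32.5 ± 10.9 CPM in IFM and from 95.4 ± 6.68 to 1185 ± 51.5 in VNC, with an interaction of 0.09 ± 0.32 whose adjusted p was 0.84. Vmat was no longer alike without pupal IFM replicate 1 or adult IFM replicate 2 or 3. Snap25, a SNARE protein of vesicle fusion, was likewise alike (2.30 ± 0.11 and 2.57 ± 0.11). In the methylmercury-fed libraries para, Vmat and Snap25 were not alike. All 3 were far lower in IFM than in VNC at both stages. Of the 19 neuronal marker genes 12 rose and 5 fell in IFM with a median of 0.53, the rises being 5 to 7 without adult IFM replicate 1 or 2. The marker list shares members with the channel and vesicle lists, para and Snap25 among them, so its rises are not separate from theirs. Their summed level in IFM, 894 to 1033 CPM in pupae and 597 to 791 in adults, was carried in large part by futsch, and without it was 362 to 460.8 CPM in pupae and 478 to 606 in adults. The part of neuronal RNA in the IFM rises was not tested.

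Most tested genes of central fuel metabolism rose in both tissues as well. Of 20 tested genes of the TCA cycle 10 rose alike, and 15 rose in IFM and 18 in VNC. Glycolysis rose in both, with 18 of 25 up in IFM and 21 in VNC, but mostly not alike. Only 4 were alike, a share near that of all genes (7 or 8 without pupal IFM replicate 2 or adult IFM replicate 2 or 3). The interaction was negative for 12 and positive for 6, against 27.4% and 26.4% of all genes. Over all genes 35.8% rose in IFM, 31.7% rose in VNC and 12.5% were alike in either direction. Pfk, the committed step of glycolysis, rose from 72.5, 90.5 and 83.5 to 509.9, 434 and 476 CPM in IFM and from 44.7, 45.5 and 49.0 to 223, 204 and 250.0 in VNC, an interaction of 0.24 ± 0.15. Hex-A, the hexokinase, was likewise alike, rising from 167 ± 27.8 to 664 ± 17.8 CPM in IFM and from 87.3 ± 2.09 to 415 ± 24.2 in VNC. Gapdh1 parted from them, with a fall in IFM (-0.52 ± 0.10) and a rise in VNC (1.57 ± 0.10), and PyK, pyruvate kinase, rose more in VNC (2.80 ± 0.12 against 0.81 ± 0.11). Glyp, glycogen phosphorylase, rose from 40.8 ± 4.22 to 1184 ± 49.3 CPM in IFM and from 119 ± 4.83 to 305 ± 29.2 in VNC, a larger rise in IFM. Pepck2, a phosphoenolpyruvate carboxykinase, was opposite, from 93.5, 74.6 and 73.9 to 354, 312 and 348 CPM in IFM and from 78.6, 79.4 and 98.0 to 11.5, 8.68 and 7.76 in VNC.

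**Figure D5:**
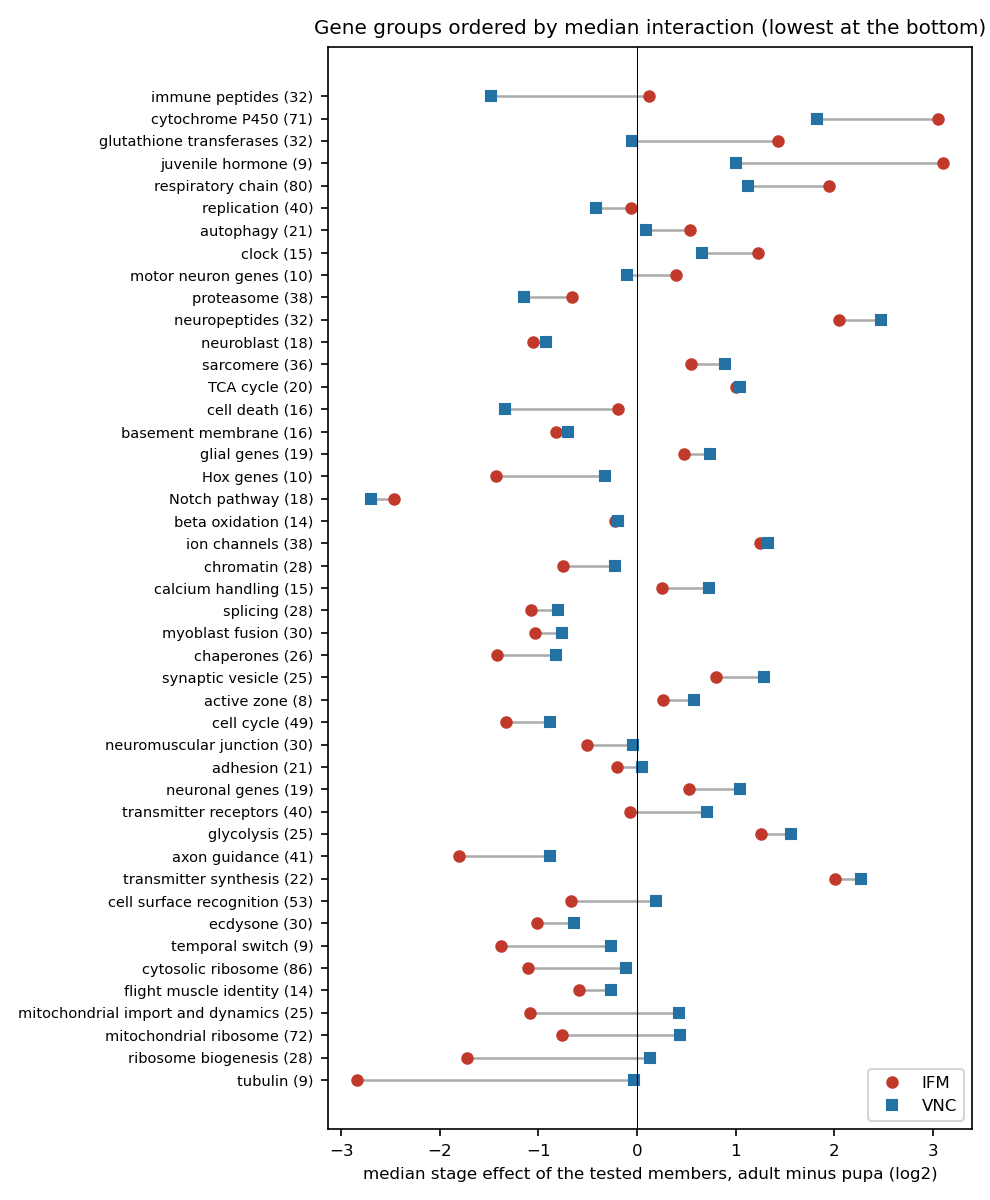
Median stage effect (x axis, log2) of the tested members of each gene group in IFM (red circles) and VNC (blue squares), with the number of tested members in brackets, ordered by median interaction. Tubulins, ribosome biogenesis and the mitochondrial ribosome sit at the bottom with IFM far left of VNC, TCA cycle and ion channel groups nearly coincide, and immune peptide, cytochrome P450 and glutathione transferase groups sit at the top with IFM right of VNC.

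Genes called in the muscle alone covered several functions. Npl4, a cofactor of the p97 segregase, rose from 76.5, 65.1 and 86.0 to 8813, 7250.2 and 7779 CPM in IFM and stood at 61.9, 62.9 and 63.5 in pupal and 54.4, 52.9 and 65.2 in adult VNC, where the stages overlapped (-0.13 ± 0.12). It began level in both tissues. Argk1, the arginine kinase that buffers ATP, fell from 10206, 9519 and 8798 to 856, 785 and 807 CPM in IFM and was at 1319, 1257 and 1268 and 1183, 1122 and 1338 in VNC. Without any 1 adult IFM library Argk1 was not IFM alone. Droj2, a DnaJ cochaperone, rose in IFM alone (2.01 ± 0.09). kirre, the founder cell protein of myoblast fusion, and Ten-a, a teneurin of synaptic matching, fell in IFM alone, from 197 ± 35.1 to 8.16 ± 1.05 and from 266 ± 4.46 to 16.7 ± 3.89 CPM, with VNC stage effects of -0.23 ± 0.14 and -0.15 ± 0.15. kirre lost that class without any 1 adult IFM library and Ten-a without adult IFM replicate 3. Of 53 tested cell surface recognition genes, dpr and side genes among them, 11 fell in IFM alone. In all 25 fell in IFM, against 35.2% of all genes, and 13 rose in VNC, against 31.7%. In both directions 13 were IFM alone, against 17.4% of all genes, and 21 without adult IFM replicate 1.

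Genes called in the nerve cord alone included glial and peptide genes. alrm, a marker of astrocyte-like glia, rose from 17.7, 12.0 and 12.2 to 338, 310.4 and 375 CPM in VNC and stood at 3.36, 2.67 and 2.25 and 5.09, 3.59 and 2.12 in IFM, a class lost without adult IFM replicate 3. PXo, a phosphate transporter, had stage effects of 3.93 ± 0.14 in VNC and 0.05 ± 0.13 in IFM. Burs, a subunit of the tanning hormone bursicon, fell from 15.3 ± 2.37 to 0.105 ± 0.0360 CPM in VNC, and in IFM it was under 1 CPM at both stages. CycB, a mitotic cyclin, fell from 14.6 ± 1.58 to 2.44 ± 1.74 CPM in VNC. In IFM it was at 14.8 ± 2.21 and 29.9 ± 5.11, a rise that was not called. It lost the class without adult VNC replicate 1, with voom, with all 24 libraries and in the methylmercury-fed libraries.

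Among genes that moved the same way unequally, the cytoskeleton of the growing muscle had the largest falls named here. alphaTub85E, a tubulin of developing muscle and other tissues, fell from 2732, 2456 and 2725 to 0.546, 0.0886 and 0.643 CPM in IFM and from 44.2, 39.4 and 42.8 to 0.410, 0.588 and 0.641 in VNC. betaTub60D, its beta partner, fell from 16986 ± 1185 to 15.2 ± 5.27 and from 231 ± 18.7 to 4.31 ± 0.748. Of 9 tubulin genes tested 6 fell in IFM and 4 in VNC, with 6 interactions negative, against 35.2%, 27.1% and 27.4% of all genes. Reads can be shared among near-identical tubulins. Cytoplasmic actins fell more in VNC. Act42A had -1.94 ± 0.12 in IFM and -4.76 ± 0.13 in VNC, and Act5C was VNC alone (-2.08 ± 0.16), though not without adult IFM replicate 2. The troponin C genes exchanged in muscle, where TpnC4, of stretch-activated fibres, rose from 0.723 ± 0.478 to 345 ± 70.5 CPM and TpnC73F fell from 1293 ± 182 to 5.14 ± 2.31, and both were under 15 CPM in every VNC library. TpnC4 lost its class without any 1 pupal VNC library or adult VNC replicate 1. Glial and neuronal genes were among the larger VNC rises. GlyT, a glycine transporter, ended at 161 ± 13.9 CPM in VNC and 2.31 ± 0.534 in IFM, and comt, the fly's NSF, rose 3.34 ± 0.15 in VNC and 0.91 ± 0.15 in IFM.

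Detoxification and immune genes more often had a positive than a negative interaction, as did fat body and haemocyte markers. Over all genes 35.8% rose in IFM, 31.7% rose in VNC, and 26.4% had a positive and 27.4% a negative interaction. Of 32 tested glutathione transferases 22 rose in IFM and 9 in VNC, 19 with a positive and 6 with a negative interaction, and of 71 cytochrome P450 genes 55 and 43 rose, 37 and 4 with interactions called. Of 32 immune peptide genes 14 had a positive and 1 a negative interaction. Of the fat body markers themselves 15 of 17 had a positive and 1 a negative interaction, and of the haemocyte markers 11 of 13 a positive one. apolpp, the lipoprotein precursor made in fat body, rose from 4997, 2719.6 and 4162 to 14190.0, 21466 and 18686 CPM in IFM and fell from 5170.2, 5249 and 6145 to 3780.0, 3290.0 and 3056 in VNC, a class lost without pupal VNC replicate 3 or adult VNC replicate 3. Jhbp1, of a juvenile hormone binding protein family, was called opposite but was at 4.51, 131 and 29.8 CPM in the 3 adult IFM libraries, the highest in the library that was also highest in gut and fat body markers. Its opposite class held in only 10 of 23 other settings, being lost without any 1 pupal library or adult VNC replicate 2 or 3, and its largest adjusted p for the interaction was 0.062. The part of fat body, gut and blood cells in these interactions was not tested.

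The methylmercury-fed libraries took no part in sorting the genes and were fitted in the same way. There the interaction was called for 6823 genes. Of the 613 genes that fell in IFM and rose in VNC in the controls, 587 had an interaction called with the same sign in these libraries and 1 with the other sign, and 425 (69.3%) were again opposite. Of the 453 that did the reverse, 423 were called with the same sign and none with the other, and 231 (51.0%) were again opposite, where 9.49% of the 11671 genes tested in both sets were. Alike was kept by 529 of 782 genes that fell (67.6%) and 373 of 716 that rose (52.1%), against 12.7% of all genes.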

How the data were processed

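The deposited values are counts per gene, whole numbers for 17545 genes in each library. Per the submitters' processing notes the tools were bcl2fastq 2.19.0, STAR 2.7.6a, Subread 2.0.1 and featureCounts on the dm6 build. Per the labels' protocols, libraries came from a stranded total RNA kit. Whether counting used the strand is not given in the sources used here, so overlapping and antisense genes are uncertain, as are near-identical paralogs (actins, tubulins, glutathione transferases). Symbols were matched for 17503 genes from a RefSeq gene table of Release 6. Series-wide tables were not used here.

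The 12 control libraries were fitted together in edgeR 4.0.16 (R 4.3.3) with the filterByExpr filter, TMM scaling and robust quasi-likelihood dispersion, 1 term per group and 8 residual degrees of freedom. Adult minus pupa was tested in each tissue, and the difference between both as the interaction, with Benjamini-Hochberg adjustment over 12001 genes. CPM are TMM-scaled. The test was tried on simulated counts with known interactions, and no result here rests on that trial. The series' design text says that feeding and collection were done in triplicate, and whether pools came from separate parents is not given in the sources used here. No pair of replicates held identical counts, and each pair differed beyond counting error. Depth limits the precision of genes under about 1 CPM, and CPM compare a gene between groups, not genes with each other.

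The genes, the 54 gene lists and the classes were chosen with earlier results of these data known, so list counts are descriptions beside the share of all genes. Named genes reached 5 CPM in at least 1 group and were the 6 largest of each class and direction with stages that do not overlap, up to 5 with the largest called interaction and up to 3 alike per list, and the actin, tubulin and troponin C families. Msp300, ATPsynC, up, wupA, Strn-Mlck, apolpp, Mhc and Act88F fall outside that rule and were named after their values were seen. Alternatives were DESeq2 1.42.0, voom with quality weights in limma 3.58.1, RLE scaling, genes kept at any count above 0, all 24 libraries, leaving out rRNA and mitochondrial genome genes, replicate blocks, a term for the title tag by which pupal replicate 1 differs from the other pupae (what the tag records is not given, and adult and pupal tags differ throughout, so tag and stage cannot be told apart), genes of at least 5 CPM, and each library left out in turn. The methylmercury-fed libraries and the settings per gene list were added after seeing the data.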

Additional observations from a re-analysis of the deposited data

Results flagged for a closer look

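The difference between tissues in the stage effect was itself tested, and 6461 genes differed. Of these, 1066 were opposite. The 12 genes below rank highest in that class by the rule for naming and do not stand for the rest. That rule took only genes whose stages did not overlap in either tissue. Their interactions (IFM minus VNC stage effect, log2) were -10.64 for Hr38, -7.65 for Nepl5, -7.02 for Gyc88E, -6.17 for gprs, -6.06 for zld and -5.96 for axed. On the other side they were 8.14 for Jhbp1, 7.42 for nrv1, 7.29 for rost, 5.26 for Pepck2, 4.55 for aos and 4.37 for Zwilch. The adult IFM libraries of Jhbp1 were 4.51, 131 and 29.8 CPM and its opposite class held in 10 of 23 other settings, and Zwilch, a kinetochore protein, was at most 5.74 CPM on average in any group. Groups of 3 libraries are too small for a check of single libraries far from the rest.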

How the results depend on the processing

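Over the planned settings, the 7 counts of genes (called in IFM, in VNC and in the interaction, opposite, alike, IFM alone and VNC alone) held to within 1.5 times, with 3 exceptions. Opposite genes went from 1066 to 561 with a replicate block within stage and to 224 when at least 2-fold was asked in each tissue, and alike genes went from 1498 to 570 when the interval had to lie within 1.5-fold. The smaller counts of the last 2 follow from their stricter rules. In the first the effect itself differed. That block takes each tissue's stage effect at replicate 1 and not over its group, with 4 residual degrees of freedom. The interaction keeps its meaning there and was called for 5891 genes. The opposite count under this block is therefore not like for like, and how much of its fall came from this was not tested. With a replicate block on the title's number, 8478 genes were called in IFM, 7073 in VNC and 6413 in the interaction, with 1071 opposite and 1527 alike. Deviations of same-numbered libraries from their group means correlated at -0.33 to 0.24, not all above 0.1, so the numbers were not taken to pair the libraries, and this block moved none of the 7 counts by over 1.5 times.

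With 1 library left out, the interaction was called for 5726 to 6578 genes, opposite for 853 to 1106 and alike for 1241 to 1656. With the block within stage, whose stage effects are those of replicate 1, opposite members fell from 31 to 19 for the mitochondrial ribosome. For import and upkeep they fell from 11 to 5. Act88F, whose interaction was not called, was 0.57 with all libraries and -1.52 without pupal VNC replicate 2 (adjusted p = 0.037, edgeR), and at most 1.22 with any other library left out. Vmat, alike in the controls, had an interaction of -0.82 in the methylmercury-fed libraries, a setting chosen after seeing the data. Genes near 1 CPM and differences under 2-fold are the least certain at this depth.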
